A study of Mus musculus with 8 samples.

Results

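The 8 piRNA loci 17-qC-935.1, 1-qD-2017.2, 1-qE3-706.1, 4-qD3-2082.1, 8-qA4-332.2, 11-qB1.3-590.3, 13-qA3.1-355.1 and 15-qE1-3710.1 gave fewer piRNAs and held more long RNA in testes of Exd2∆ mice than in testes of Exd2+/+ mice. They are 8 of the 208 loci measured and of the 94 loci named for a chromosome band; the other 114 are named for a gene. The 8 were chosen by name from their fold changes in these same libraries, where small RNA was called lower and long RNA higher at an adjusted p below 0.05. Their directions, fold changes and opposition between the assays are therefore given as a description, with no test. Over all 208 loci, 12 meet both calls: the 8, 3 gene-named loci and the band-named locus 4-qB3-639.1, which is not among the 8.

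Exd2∆ mice carry a Cas9 deletion, made in C57BL6 embryos, that takes away the end of exon 2 of Exd2 and intron sequence next to it. Exd2+/+ mice carry the gene without this deletion. Both groups were adult, and RNA came from testes, in which germ cells and somatic cells are mixed. Each genotype has 2 small RNA and 2 long RNA libraries labelled as replicates. Whether these come from separate animals, and whether a small and a long RNA library share one, the labels do not say, so the spread between them may be technical. In such bulk tissue fewer cells of a type and less RNA per cell cannot be told apart. The tables hold piRNA loci alone, and 0 of the 24 piRNA pathway genes looked up, Exd2 included, and 0 of the 19 testis cell type markers lie among them, so the deletion and the cell makeup were not checked here.

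PIWI-interacting RNAs (piRNAs) guide PIWI proteins in the germ line. In the mouse, long single-stranded transcripts of piRNA loci are capped and polyadenylated like mRNA, exported, and cut near mitochondria, where the endonuclease PLD6 and the helicase MOV10L1 act and PIWI proteins take up the fragments. Most piRNAs of the adult testis arise from loci switched on by the transcription factor A-MYB at the pachytene stage of meiosis, many of them far from protein-coding genes. EXD2 is a protein with an exonuclease domain, and EXD1, a protein of the same kind, is known in mouse piRNA biogenesis. Here, small RNA counted at a locus stands for its piRNAs and long RNA for its precursor, although long RNA over an annotated transcript also holds that transcript in any other use.

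Most of the 8 loci overlap a non-coding RNA gene (GRCm38 coordinates of the deposited tables, GENCODE M21 annotation). On the same strand, 7 of the 8 overlap an annotated gene, against 61 of the other 86 band-named loci and 182 of all 208. The gene is not listed as protein-coding at 6 of the 8 and at 53 of the other 86. The 6 include 8-qA4-332.2, whose gene awaits experimental proof, and the 53 include pseudogenes. The 5′ end of 6 of the 8 lies within 50 bases of an annotated transcript start, against 27 of the other 86. The same holds for 85 of the 114 gene-named loci, so it is not particular to the 8. Annotated exons cover a median of 34.1% of the 8 loci and 2.59% of the other band-named loci, beside 20.4% of the gene-named loci. No test over loci was made of these counts.

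17-qC-935.1 (chromosome 17, 49112270 to 49113511, minus strand) is 1242 bp long and fills the lincRNA gene 1700008K24Rik, whose 5 annotated transcripts have 2 or 3 exons and 682 to 840 spliced bases. 1-qD-2017.2 (chromosome 1, 91403055 to 91406029, minus strand) starts at the same base as the lincRNA gene 1700020N18Rik and runs on past its end, so that the gene covers 38.7% of the locus. 4-qD3-2082.1 (chromosome 4, 135626795 to 135630198, plus strand) lies within the lincRNA gene 1700029M20Rik, and exons cover 84.7% of it, the highest share among the 8. 15-qE1-3710.1 (chromosome 15, 83353847 to 83367280, minus strand) lies within the lincRNA gene 1700001L05Rik, and exons cover 45.5% of the locus. In each of these 4 loci the annotated gene is a spliced lincRNA gene.

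11-qB1.3-590.3 (chromosome 11, 50939595 to 50943725, minus strand) holds the gene 4933414I15Rik, listed as protein-coding in GENCODE M21 and as a long non-coding RNA in RefSeq, over 73.0% of its span. 13-qA3.1-355.1 (chromosome 13, 24905599 to 24935032, plus strand) is the longest of the 8 at 29434 bp. It starts with the antisense RNA gene 4932702P03Rik, which covers 29.5% of it. Most of the locus runs opposite to Aldh5a1, the gene for succinate-semialdehyde dehydrogenase. This includes most of the part covered by 4932702P03Rik. The long RNA kit was directional, but the strand setting of the counting is not given in the sources used here, and without it reads of this locus and of Aldh5a1 could not be told apart. 8-qA4-332.2 (chromosome 8, 37088934 to 37094955, minus strand) overlaps, at its 3′ end, Gm10683, a single-exon transcript of the class awaiting experimental proof, and, opposite to its 5′ end, the processed pseudogene Gm8342. 1-qE3-706.1 (chromosome 1, 125174891 to 125177979, plus strand) overlaps no annotated gene on either strand, and the nearest, the lincRNA gene 1700121L03Rik on the minus strand, lies 12302 bp away. The map of annotated exons draws the transcripts over each locus.

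**Figure D1:**
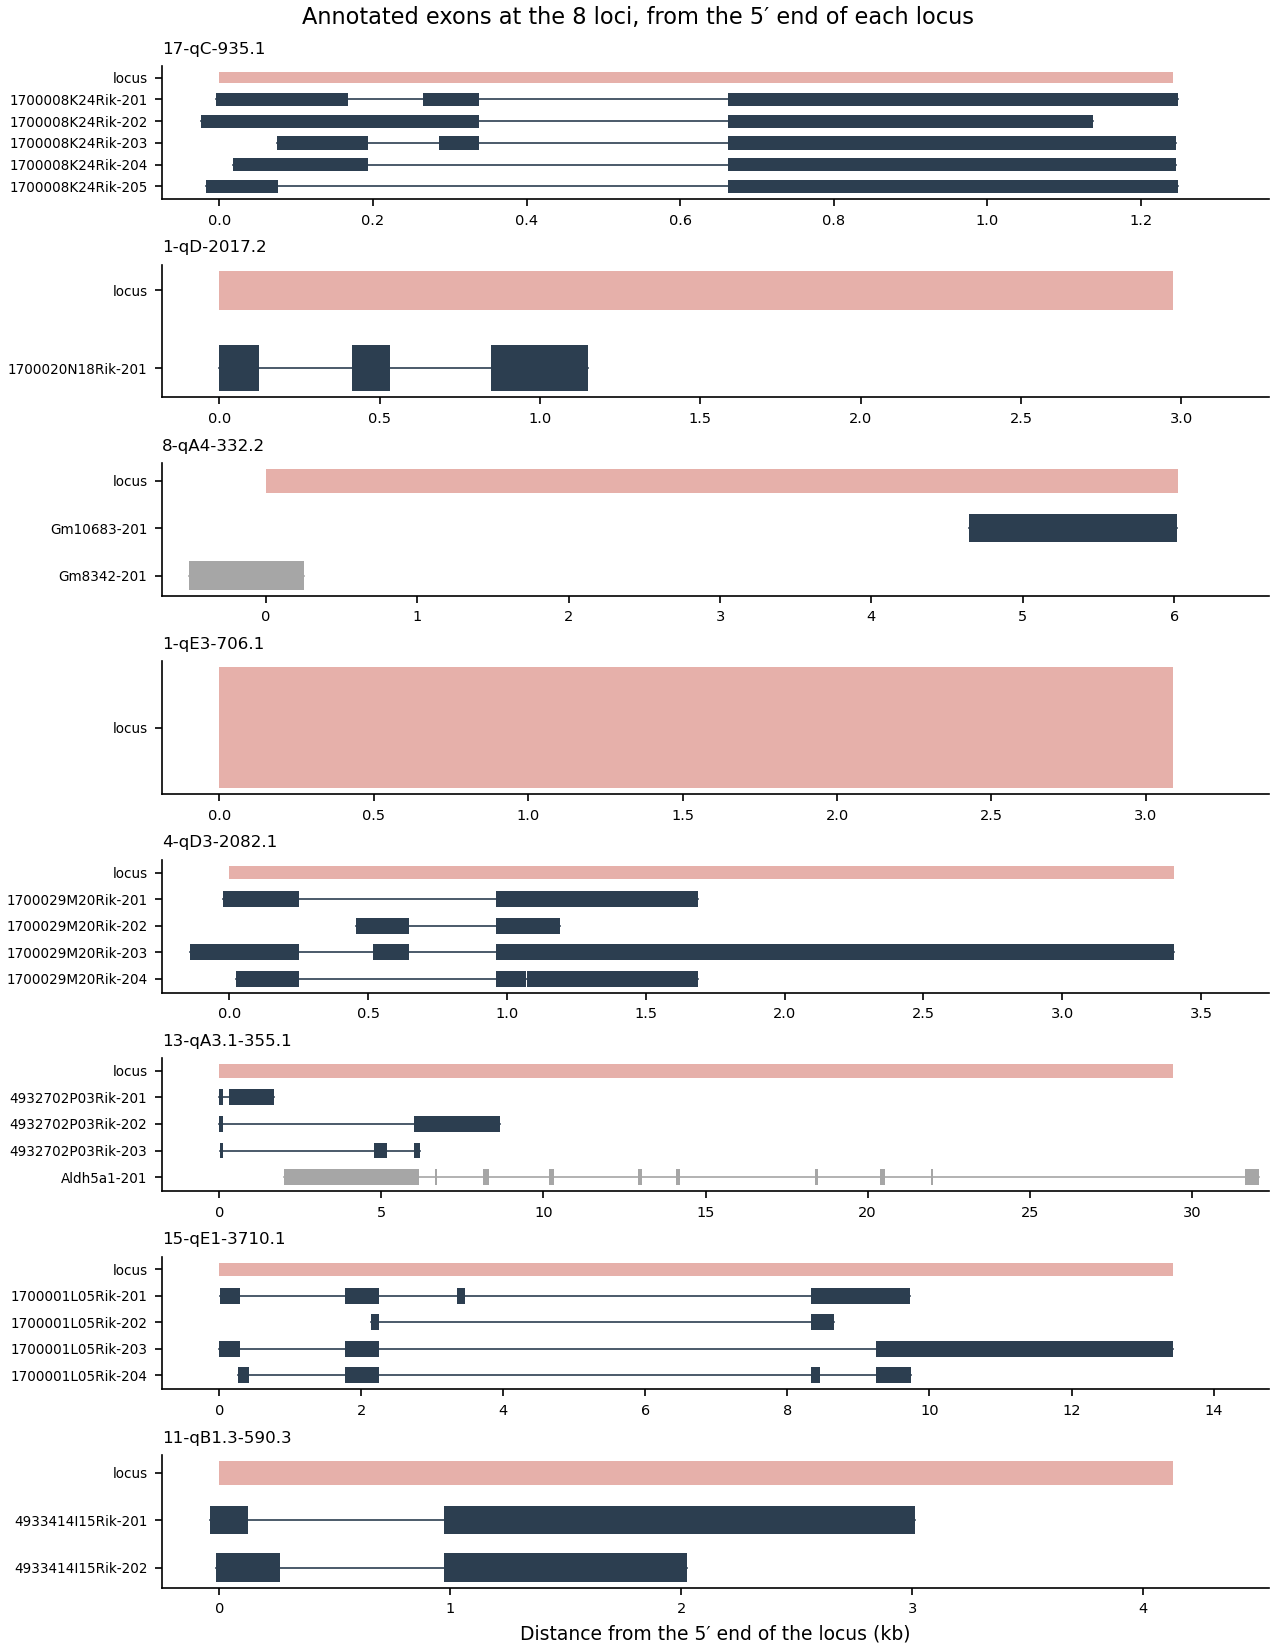
Annotated exons at the 8 loci, with the distance from the 5′ end of each locus in kb on the horizontal axis. Pink bars are the loci, dark boxes exons of GENCODE M21 transcripts on the same strand and grey boxes those on the opposite strand. The lincRNA transcripts of 17-qC-935.1 and 4-qD3-2082.1 fill their loci, 1700020N18Rik ends well inside 1-qD-2017.2, and 1-qE3-706.1 has no exon.

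RefSeq (GRCm38.p6) has a transcript start within 200 bases of the locus start for 6 of the 8 loci; the other two, 1-qE3-706.1 and 8-qA4-332.2, have none in the table used. Because loci of this kind are known targets of A-MYB, the windows from 250 bases before to 50 bases after these starts were searched on both strands for the MYB core, written CAACNG or TAACNG. The 2 forms differ in their first base, so no match counts for both. At least 1 core was found in 4 of the 6 windows, in 23 of the 27 windows of other band-named loci and in 49.7% of all 32851 RefSeq windows of this length. At least 3 cores were found in 2 of the 6, in 10 of the 27 and in 4.73% of all windows. The 17-qC-935.1 window has 4 cores, with leftmost bases at -60, -7, 10 and 17 where the start is 0, and that of 1-qD-2017.2 has 2, at -37 and -19. The 11-qB1.3-590.3 window has 4, at -46, -42, -27 and 41, of which the leftmost pair, on opposite strands, shares bases, and that of 15-qE1-3710.1 has 2, at 19 and 44. The windows of 4-qD3-2082.1 and 13-qA3.1-355.1 have 0 cores. The RefSeq start used for 4-qD3-2082.1 lies 140 bases before the locus start, so its window ends before the locus begins. The CCAAT box, searched as CCAAT on both strands, occurs 2 times each in the windows of 17-qC-935.1, 4-qD3-2082.1 and 13-qA3.1-355.1; 14 of the 27 and 37.4% of all windows hold it. TATAAA, the TATA box, searched likewise, is in 0 of the 6 windows, in 3 of the 27 and in 13.6% of all windows. A match is a run of letters, not a shown binding site.

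The start windows of 3 loci with cores before the start and of 13-qA3.1-355.1, which has none, are shown to compare where the cores lie. Each reads 5′ to 3′ on the strand of the locus, from 250 bases before to 50 bases after the RefSeq start (RefSeq, GRCm38.p6), and capitals mark the MYB cores on either strand.
17-qC-935.1, 1700008K24Rik, chr17:49113484-49113783, minus strand: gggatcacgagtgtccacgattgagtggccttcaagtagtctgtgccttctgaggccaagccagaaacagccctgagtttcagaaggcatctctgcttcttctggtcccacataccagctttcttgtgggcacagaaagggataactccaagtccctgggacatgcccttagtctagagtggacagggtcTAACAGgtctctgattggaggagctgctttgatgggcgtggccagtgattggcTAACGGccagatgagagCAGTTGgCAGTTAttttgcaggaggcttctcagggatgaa
1-qD-2017.2, 1700020N18Rik, chr1:91405980-91406279, minus strand: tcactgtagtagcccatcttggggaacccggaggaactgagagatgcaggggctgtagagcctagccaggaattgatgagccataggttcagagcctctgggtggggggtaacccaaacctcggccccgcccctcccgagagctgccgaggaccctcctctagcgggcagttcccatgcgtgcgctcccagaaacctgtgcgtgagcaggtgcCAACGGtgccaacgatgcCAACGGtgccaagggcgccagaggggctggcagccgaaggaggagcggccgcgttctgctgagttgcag
11-qB1.3-590.3, 4933414I15Rik, chr11:50943676-50943975, minus strand: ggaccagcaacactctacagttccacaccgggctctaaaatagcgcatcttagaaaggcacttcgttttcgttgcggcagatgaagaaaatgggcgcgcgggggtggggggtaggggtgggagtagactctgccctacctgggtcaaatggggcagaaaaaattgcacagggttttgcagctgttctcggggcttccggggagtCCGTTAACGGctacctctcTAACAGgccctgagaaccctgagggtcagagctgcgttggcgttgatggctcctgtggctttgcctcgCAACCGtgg
13-qA3.1-355.1, 4932702P03Rik, chr13:24905350-24905649, plus strand: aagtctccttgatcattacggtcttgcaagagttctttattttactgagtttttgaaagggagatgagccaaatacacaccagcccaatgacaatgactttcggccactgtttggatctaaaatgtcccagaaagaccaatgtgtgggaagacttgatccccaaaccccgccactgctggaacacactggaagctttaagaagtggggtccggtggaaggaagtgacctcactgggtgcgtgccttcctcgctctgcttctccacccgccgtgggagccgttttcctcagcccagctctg

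Depth at these loci left little counting error. The libraries held 28408830.3 to 37660202 estimated counts over the 208 loci in small RNA and 960909.5 to 1842625 in long RNA. The lowest count of any of the 8 loci was 3341 in small RNA and 1522 in long RNA, with counting errors of 1.73% and 2.56%, which do not cover amplification since the labels name no molecular identifiers. Many deposited counts are not whole, so some reads were counted in part, by a rule not given in the sources used here. In long RNA, 16 of the 32 values of the 8 loci were whole within 0.001, 50% of them, against 15.3% over all loci. 17-qC-935.1, 1-qE3-706.1 and 4-qD3-2082.1 were whole in all 4 long RNA libraries and 8-qA4-332.2 and 11-qB1.3-590.3 in none. CPM here are counts scaled to the library's total over the 208 loci with the trimmed mean of M values (TMM) within each assay, so each level is relative to these loci.

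Together the 8 loci supplied 0.803% and 0.908% of the small RNA counts in Exd2∆, against 1.65% and 1.70% in Exd2+/+. They made up 8.84% and 7.38% of the long RNA counts in Exd2∆, against 4.06% and 4.08% in Exd2+/+. The share thus lay lower in small RNA and higher in long RNA in both Exd2∆ libraries, with no overlap. 17-qC-935.1 alone held 3.43% and 2.43% of the long RNA counts in Exd2∆, against 0.795% and 0.722% in Exd2+/+. Of all 208 loci, 66 were called lower in small RNA (31.7%) and 14 higher in long RNA (6.73%), in edgeR's quasi-likelihood test at a Benjamini-Hochberg adjusted p under 0.05. All 8 are in both counts by choice, and that choice also favours loci whose libraries do not overlap between genotypes. On the log2 scale their median difference lay at -1.002 in small and 0.67 in long RNA, against 0.04 and 0.01 over all loci.

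**Figure D2:**
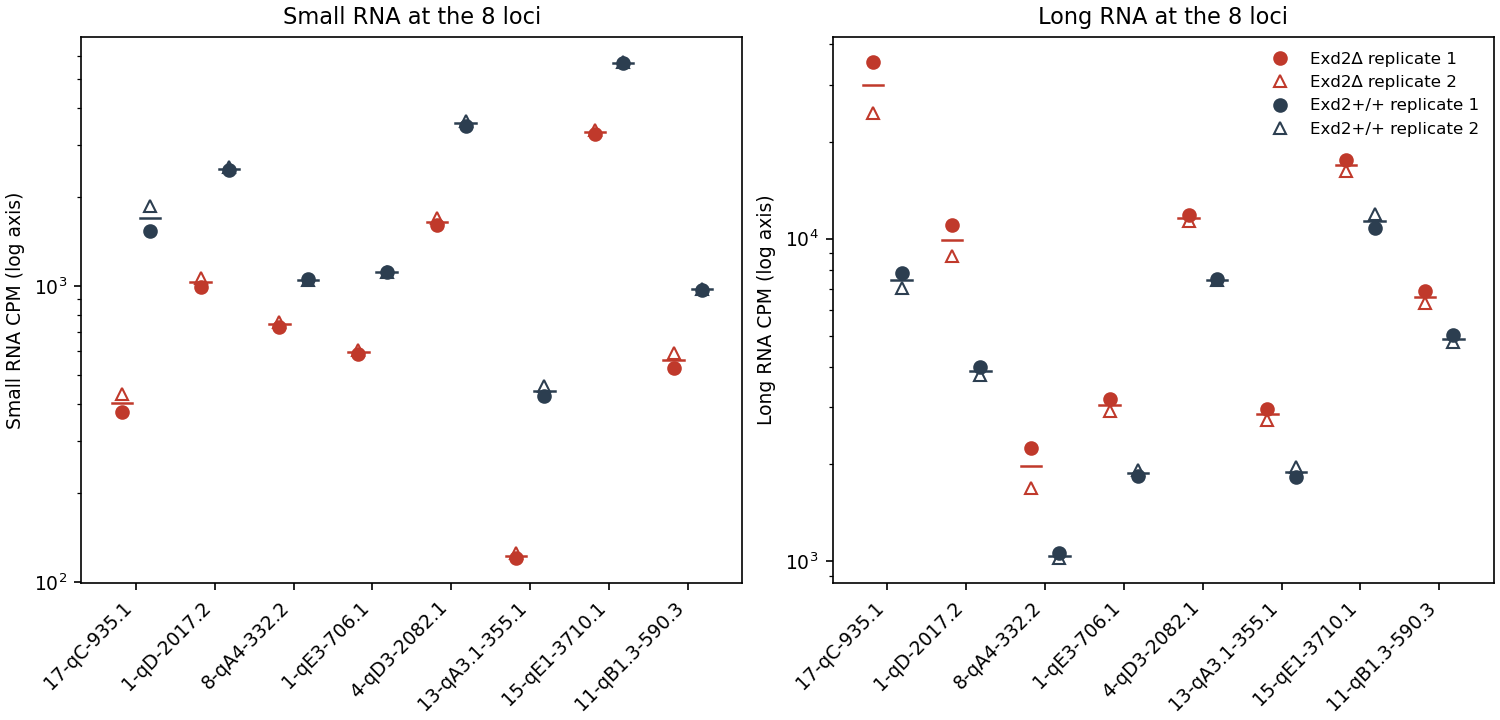
Small RNA (left) and long RNA (right) CPM at the 8 loci in each library, on log axes. Red marks are the 2 Exd2∆ and dark marks the 2 Exd2+/+ libraries, and horizontal lines their means. In both panels the genotypes do not overlap at any of the 8 loci, which were chosen by these contrasts. How many of all loci show no overlap was not counted.

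17-qC-935.1, over the lincRNA gene 1700008K24Rik, had the largest change of the 8 in both assays. Its piRNAs measured 375 and 431 CPM in Exd2∆, against 1536 and 1865 CPM in Exd2+/+. Its long RNA measured 35403 and 24526 CPM in Exd2∆, against 7809 and 7056 CPM in Exd2+/+. Both Exd2∆ libraries lie below both Exd2+/+ libraries in small RNA and above them in long RNA, with log2 fold changes of -2.08 ± 0.10 and 2.01 ± 0.19 (SE of the edgeR fit, as for all fold changes here). It is also where Exd2∆ replicates of long RNA spread most, at a mean of 29965 ± 7691 CPM beside 7432 ± 533 CPM in Exd2+/+ (SD of 2 libraries each). It ranked 2 of 208 by long RNA CPM in Exd2∆ and 44 in Exd2+/+, and by small RNA CPM 102 in Exd2∆ and 76 in Exd2+/+.

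1-qD-2017.2, which extends the lincRNA gene 1700020N18Rik, had piRNAs at 989.9 and 1064 CPM in Exd2∆, against 2465 and 2512 CPM in Exd2+/+. Its long RNA stood at 11064 and 8820.0 CPM in Exd2∆, against 4004 and 3777 CPM in Exd2+/+. The genotypes do not overlap in either assay, and the log2 fold changes of -1.28 ± 0.06 in small and 1.35 ± 0.13 in long RNA are close in size. 4-qD3-2082.1, within the lincRNA gene 1700029M20Rik, had piRNAs at 1599.5 and 1697 CPM in Exd2∆, against 3472 and 3612 CPM in Exd2+/+. Its long RNA, at 11832 and 11359 CPM in Exd2∆, against 7486 and 7425 CPM in Exd2+/+, varied least between replicates among the 8. The groups are again apart in both assays, with a larger change in small RNA (-1.10 ± 0.06) than in long RNA (0.64 ± 0.07).

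15-qE1-3710.1, over the lincRNA gene 1700001L05Rik, was the locus with the most small RNA of the 8 in both genotypes. Its piRNAs measured 3261 and 3354 CPM in Exd2∆, against 5639 and 5723 CPM in Exd2+/+. Its long RNA measured 17573 and 16174 CPM in Exd2∆, against 10809 and 11922 CPM in Exd2+/+. No library of one genotype reaches the other, with log2 fold changes of -0.78 ± 0.05 and 0.57 ± 0.09. 11-qB1.3-590.3, over 4933414I15Rik, had piRNAs at 528 and 595 CPM in Exd2∆, against 971 and 975 CPM in Exd2+/+. Its long RNA, at 6899.7 and 6318 CPM in Exd2∆, against 5012 and 4786 CPM in Exd2+/+, gave the smallest long RNA change of the 8 (0.43 ± 0.09), beside -0.79 ± 0.08 in small RNA. The lower Exd2∆ long RNA library there exceeds the higher Exd2+/+ library by 26.1%.

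13-qA3.1-355.1, which opposes Aldh5a1, had the least small RNA of the 8, at 119.9 and 125 CPM in Exd2∆, against 423 and 457 CPM in Exd2+/+. Its long RNA stood at 2972 and 2739.5 CPM in Exd2∆, against 1831 and 1958 CPM in Exd2+/+. The genotypes are apart in both assays, and small RNA changed more (-1.85 ± 0.10) than long RNA (0.59 ± 0.09). 8-qA4-332.2, the locus with Gm10683 at its end, showed the reverse balance. Its piRNAs measured 728 and 757 CPM in Exd2∆, against 1053 and 1045 CPM in Exd2+/+. Its long RNA measured 2253 and 1687 CPM in Exd2∆, against 1062 and 1021 CPM in Exd2+/+, with the widest relative Exd2∆ spread after 17-qC-935.1. Neither assay overlaps, and the log2 fold changes were -0.50 ± 0.06 in small and 0.92 ± 0.15 in long RNA. At 1-qE3-706.1, the locus without an annotated gene, piRNAs stood at 587 and 607 CPM in Exd2∆, against 1114 and 1114 CPM in Exd2+/+. Its long RNA stood at 3187 and 2926 CPM in Exd2∆, against 1843 and 1923 CPM in Exd2+/+, so that neither assay overlaps, with log2 fold changes of -0.90 ± 0.06 and 0.70 ± 0.09.

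The 8 loci thus differ in which assay changed more. On the log2 scale the small RNA change was larger in size than the long RNA change at 6 of them, and smaller at 1-qD-2017.2 and 8-qA4-332.2. The 2 sizes lie within the SE of the long RNA change at 17-qC-935.1 (-2.08 ± 0.10 in small and 2.01 ± 0.19 in long RNA). The same holds at 1-qD-2017.2 (-1.28 ± 0.06 and 1.35 ± 0.13), so the order is not settled at these loci. Across the 8, long RNA log2 fold change and log2 length had a Pearson's r of -0.65 and a Spearman's rho of -0.71. For small RNA log2 fold change and log2 length these were 0.11 and 0.45. Pearson's r between the small and long RNA log2 fold changes was -0.59 and Spearman's rho -0.43. All of these describe 8 loci that were chosen by their fold changes and share the same 8 libraries. The plot of both fold changes shows the 8 beside all other loci.

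**Figure D3:**
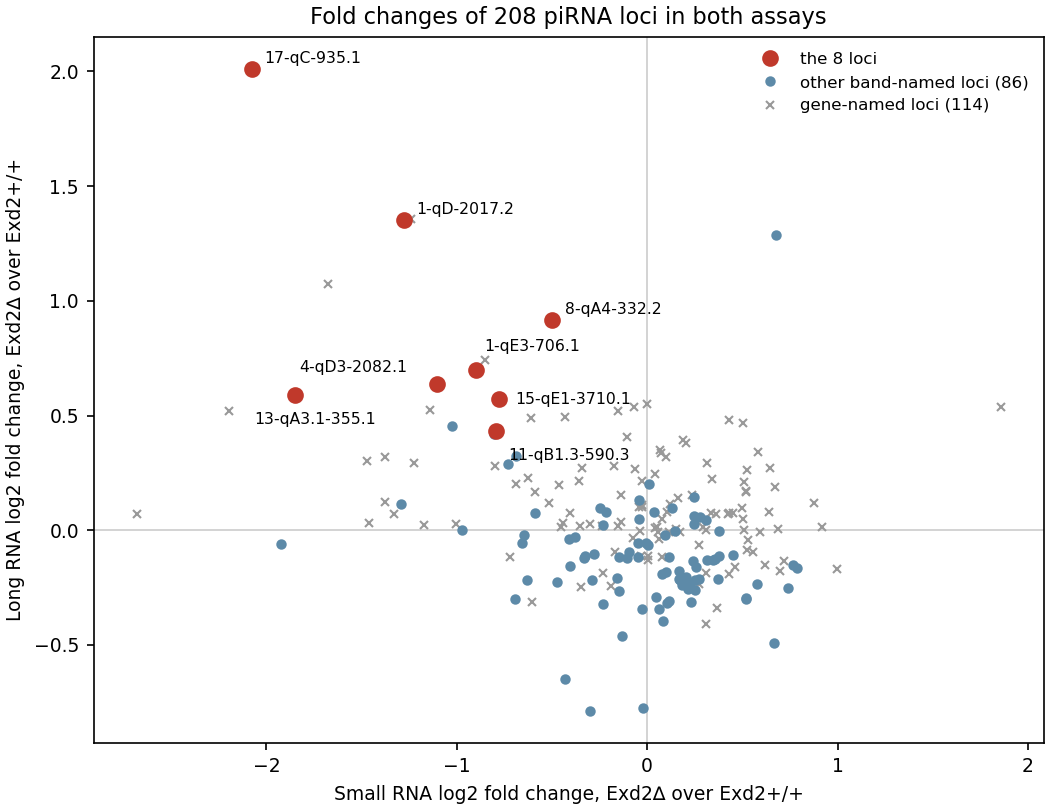
Log2 fold change (Exd2∆ over Exd2+/+) in small RNA on the horizontal and long RNA on the vertical axis for all 208 loci. Red points are the 8 loci, which lie at upper left by choice, blue points the other 86 band-named and grey crosses the 114 gene-named loci.

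The ratio of small to long RNA CPM at a locus relates its piRNAs to its long RNA. As each assay is scaled to the 208 loci, a ratio of 1 means an equal share of both assays, not equal numbers of molecules. Small and long RNA libraries were joined by replicate number, and the 2 crosswise joins are given as ranges. In Exd2∆ the ratio of the 8 loci ran between 0.0135 at 17-qC-935.1 and 0.377 at 8-qA4-332.2, and in Exd2+/+ between 0.199 at 11-qB1.3-590.3 and 1.01 at 8-qA4-332.2. Its median was 0.123 in Exd2∆ and 0.487 in Exd2+/+ over the 8 loci, against 0.978 in Exd2∆ and 0.943 in Exd2+/+ over the other 86 band-named loci. Among the 94 band-named loci, with 1 for the highest ratio, the ranks of the 8 were 70 to 93 in Exd2∆ and 42 to 86 in Exd2+/+, so that 7 of them sat in the lower part of the order in Exd2+/+ too.

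The ratio at 17-qC-935.1 was 0.0106 and 0.0176 in Exd2∆, against 0.197 and 0.264 in Exd2+/+, which is 17.0-fold lower in Exd2∆ by the ratio of means. At 1-qD-2017.2 it was 0.0895 and 0.121 in Exd2∆, against 0.616 and 0.665 in Exd2+/+, and at 13-qA3.1-355.1 0.0403 and 0.0455 in Exd2∆, against 0.231 and 0.233 in Exd2+/+. These 3 loci, over 1700008K24Rik, over 1700020N18Rik and opposite to Aldh5a1, had the largest differences in the ratio. At 4-qD3-2082.1 the ratio was 0.135 and 0.149 in Exd2∆, against 0.464 and 0.486 in Exd2+/+, and at 1-qE3-706.1 0.184 and 0.207 in Exd2∆, against 0.604 and 0.579 in Exd2+/+. At 15-qE1-3710.1 it was 0.186 and 0.207 in Exd2∆, against 0.522 and 0.480 in Exd2+/+, at 8-qA4-332.2 0.323 and 0.449 in Exd2∆, against 0.991 and 1.02 in Exd2+/+ and at 11-qB1.3-590.3 0.0765 and 0.0942 in Exd2∆, against 0.194 and 0.204 in Exd2+/+. At these 5 loci the ratio was 2.34- to 3.34-fold lower in Exd2∆. As neither assay overlaps between genotypes at any of the 8, every join of a small and a long RNA library gives a lower ratio in Exd2∆ by construction; the closest were 8-qA4-332.2, at up to 0.449 in Exd2∆ and down to 0.984 in Exd2+/+, and 11-qB1.3-590.3, at up to 0.0942 in Exd2∆ and down to 0.194 in Exd2+/+. The difference of the 2 log2 fold changes, small minus long RNA, was -4.09 ± 0.25 at 17-qC-935.1 and -1.23 ± 0.13 at 11-qB1.3-590.3, the extremes of the 8 (SE of an edgeR fit of all 8 libraries).

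**Figure D4:**
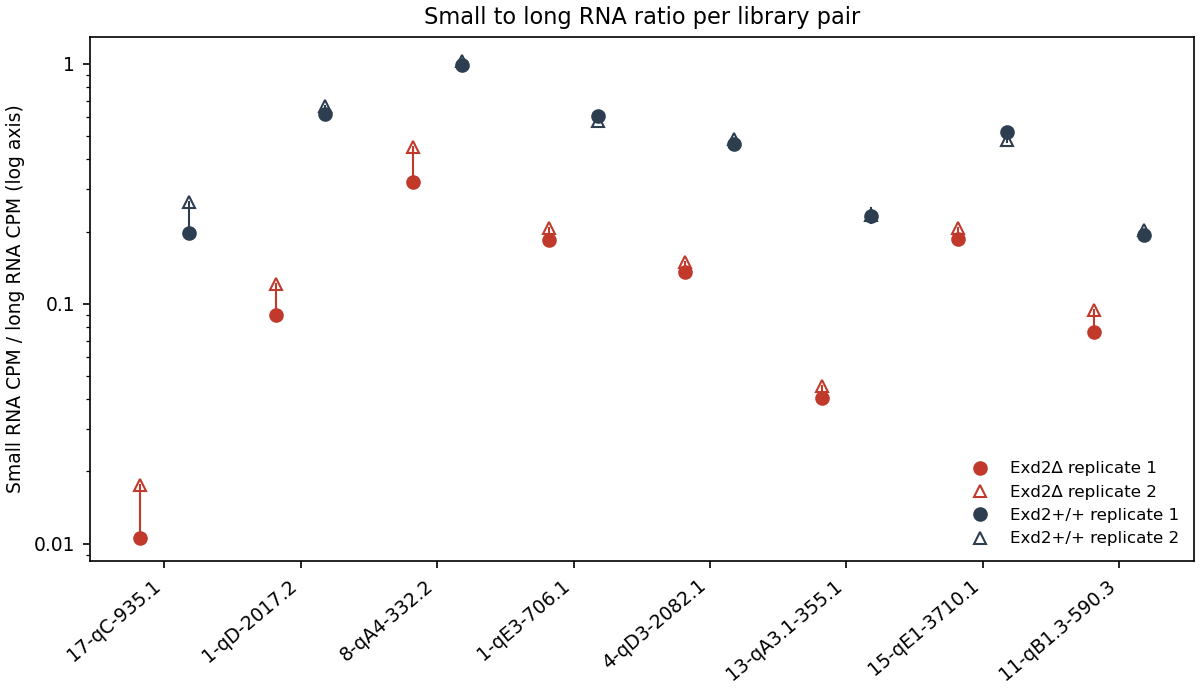
Small RNA CPM over long RNA CPM at the 8 loci, on a log axis. Marks join libraries of the same replicate number, lines span all 4 joins within a genotype, red is Exd2∆ and dark Exd2+/+; the ratio at 17-qC-935.1 lies near 0.0135 in Exd2∆ and near 0.229 in Exd2+/+.

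The 8 loci are short for band-named loci. Their lengths run over 1242 to 29434 bp with a median of 3768 bp, against a median of 26817 bp for the other 86, and 7 of the 8 are shorter than that median. 13-qA3.1-355.1 is the exception, with 36 longer and 57 shorter band-named loci. 17-qC-935.1 is shorter than all band-named loci but 1. Of the 9 band-named loci of at most 4131 bp, 5 are among the 8. The limit of 4131 bp was taken from the lengths of the 8 themselves. That 5 of the 8 lie within it is therefore fixed by the limit and is given as a description. The other 4 of the 9 loci, which were picked out once their values were known, were not called in long RNA. 8-qA4-155.1 (-0.73 ± 0.09 in small and 0.29 ± 0.15 in long RNA) and 10-qA3-143.2 (-1.29 ± 0.12 and 0.12 ± 0.10) were called lower in small RNA. 8-qA2-343.1 (0.01 ± 0.06 and 0.20 ± 0.14) and the 123 bp locus 1-qE2.3-2.1 were called in neither assay.

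Per kb of locus, the short loci among the 8 were dense in long RNA also in Exd2+/+. Long RNA of 17-qC-935.1, 4-qD3-2082.1, 1-qD-2017.2 and 11-qB1.3-590.3 took ranks 1 to 4 of the 94 band-named loci by CPM per kb in both genotypes. 15-qE1-3710.1 ranked 5 in Exd2∆ and 7 in Exd2+/+, and 1-qE3-706.1 ranked 7 in Exd2∆ and 10 in Exd2+/+. 8-qA4-332.2 ranked 37 in Exd2∆ and 68 in Exd2+/+, and 13-qA3.1-355.1 ranked 78 in Exd2∆ and 92 in Exd2+/+. The long RNA level was 24126 ± 6193 CPM per kb in Exd2∆ and 5984 ± 429 in Exd2+/+ at 17-qC-935.1, the highest of the 8, and 97.0 ± 5.59 in Exd2∆ and 64.4 ± 3.05 in Exd2+/+ at 13-qA3.1-355.1, the lowest (SD, n = 2 each). The order of the means, high to low, was the same in both genotypes: 17-qC-935.1, 4-qD3-2082.1, 1-qD-2017.2, 11-qB1.3-590.3, 15-qE1-3710.1, 1-qE3-706.1, 8-qA4-332.2 and 13-qA3.1-355.1. In Exd2∆ the libraries of 4-qD3-2082.1 (3476 and 3337 CPM per kb) and 1-qD-2017.2 (3719 and 2965) overlap, and in Exd2+/+ no neighbours do. The median over the 8 was 1428 CPM per kb in Exd2∆ and 1016 in Exd2+/+, against 243 in Exd2∆ and 272 in Exd2+/+ over the other band-named loci.

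In small RNA per kb the 8 loci spread over most of the range of band-named loci. In Exd2∆ the order, high to low, was 4-qD3-2082.1, 1-qD-2017.2, 17-qC-935.1, 15-qE1-3710.1, 1-qE3-706.1, 11-qB1.3-590.3, 8-qA4-332.2 and 13-qA3.1-355.1, and 1-qD-2017.2 and 17-qC-935.1 overlap between replicates. In Exd2+/+ 17-qC-935.1 came first, the others kept this order, and no neighbours overlap. 17-qC-935.1 stood at 325 ± 31.9 CPM per kb in Exd2∆ and 1369 ± 187 in Exd2+/+, ranks 40 and 4 of the 94 band-named loci. 4-qD3-2082.1 stood at 484 ± 20.3 CPM per kb in Exd2∆ and 1041 ± 29.0 in Exd2+/+, ranks 28 and 10. 13-qA3.1-355.1 stood at 4.16 ± 0.115 in Exd2∆ and 15.0 ± 0.810 in Exd2+/+, ranks 92 and 85 (SD, n = 2 each). By CPM, with length left aside, the 8 held ranks 40 to 84 of 94 in small and 21 to 88 in long RNA of Exd2+/+. Per kb of annotated exon instead of locus, 17-qC-935.1 stayed first by long RNA in Exd2+/+ (8087 CPM per exon kb) and 13-qA3.1-355.1 last (416). 1-qD-2017.2 came close to 17-qC-935.1 (7113), and 1-qE3-706.1 was out for want of exons. These values divide all counts of a locus by its exon length, and exons cover 18.4% of 1-qD-2017.2 and 74.0% of 17-qC-935.1. Their closeness thus need not mean a like density over exons.

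**Figure D5:**
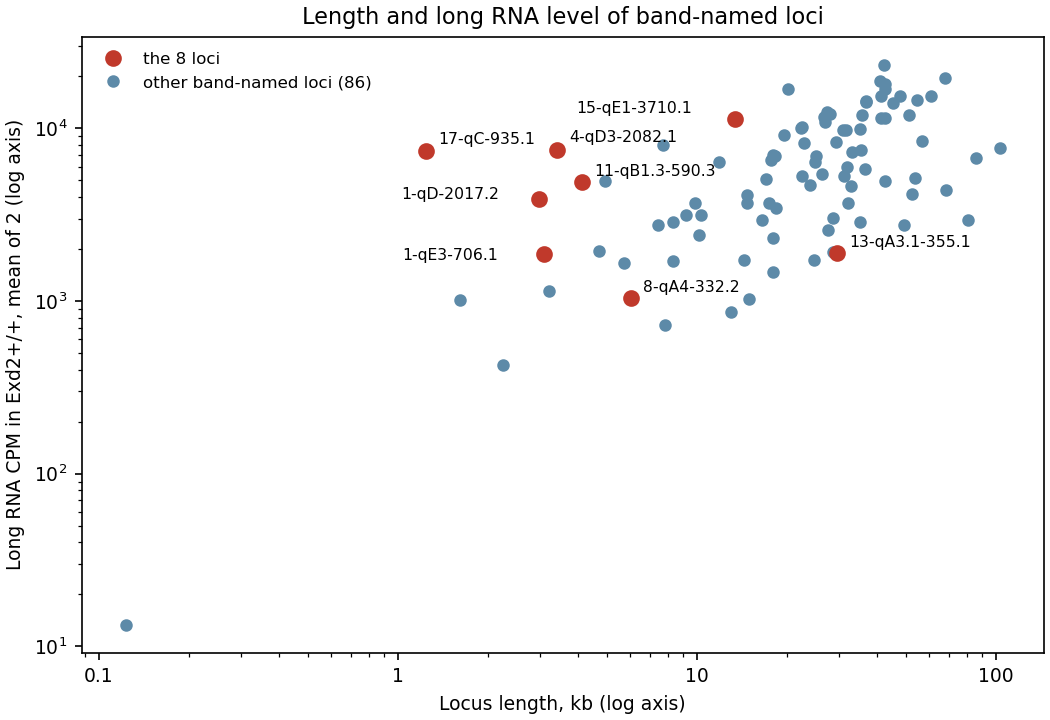
Locus length in kb on the horizontal and mean long RNA CPM of the 2 Exd2+/+ libraries on the vertical axis, both log axes, for the 94 band-named loci. Red points are the 8 loci; 7 lie left of the median length of the other loci and 13-qA3.1-355.1 to its right.

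The 2 Exd2∆ replicates differed from each other in the same way at all 8 loci. Exd2∆ replicate 1 had the lower small RNA CPM and the higher long RNA CPM at 8 of 8. The same held at 29 of the 66 loci called lower in small RNA (43.9%), which include the 8. It held at 11 of the other 86 band-named loci and at 71 of all 208 loci (34.1%). In long RNA the gap was widest at 17-qC-935.1 and 8-qA4-332.2, where CPM of replicate 1 was 1.44 and 1.34 times that of replicate 2. Without Exd2∆ replicate 1 the long RNA log2 fold change was 1.73 at 17-qC-935.1, 1.18 at 1-qD-2017.2 and 0.70 at 8-qA4-332.2, and without replicate 2 it was 2.26, 1.51 and 1.12. In edgeR's quasi-likelihood test the long RNA calls of the 8 were kept without either Exd2∆ library and lost without either Exd2+/+ library. Such a fit assumes that the lone library of a genotype varies like the other genotype's 2, and the cause was not tested. Without Exd2+/+ replicate 1 the fold changes were 2.09 at 17-qC-935.1, 1.40 at 1-qD-2017.2 and 0.95 at 8-qA4-332.2, and without Exd2+/+ replicate 2 they were 1.94, 1.31 and 0.89. The long RNA library of Exd2∆ replicate 1 is also the shallowest, and its part in these differences was not tested.

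On the inner side of the choice, 11-qB1.3-590.3, with the weakest long RNA call of the 8, had an adjusted p of 0.0448 (edgeR quasi-likelihood) and was not called at library-total scaling, with 0.37 and an adjusted p of 0.0684. 4-qB3-639.1, which is not among them, had one of 0.0446 with -0.80 ± 0.05 in small and 0.42 ± 0.08 in long RNA. The next band-named loci beyond the threshold were 5-qG2-2301.2 (-1.03 ± 0.06 in small and 0.45 ± 0.10 in long RNA), 4-qB3-277.1 (-0.69 ± 0.05 in small and 0.32 ± 0.09 in long RNA) and, well past it, 8-qA4-155.1, with edgeR adjusted p-values of 0.0534, 0.0883 and 0.272 in long RNA. Among the other 86 band-named loci 27 were called lower in small RNA, and 10 of these 27 had a positive long RNA log2 fold change. 8-qA4-155.1 is also the neighbour of 8-qA4-332.2, on the same strand and 8941 bp away. The one other piRNA locus within 100 kb of any of the 8, pi-Mrs2.1, lies 52450 bp from 13-qA3.1-355.1 on the opposite strand and stood at 0.24 ± 0.16 in small and 0.15 ± 0.09 in long RNA. 19-qC2-1361.2 was the band-named locus with higher long RNA that did not have fewer piRNAs (0.68 ± 0.07 in small and 1.29 ± 0.10 in long RNA).

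Over all 8 libraries, with log2 CPM centred within each assay, the profile of each of the 8 had a Pearson r of 0.887 to 0.998 with the mean of the other seven, lowest at 8-qA4-332.2 and 13-qA3.1-355.1. The choice of the 8 by both contrasts in these libraries fixes that r is high, so it is no evidence of likeness. The 5 other loci most like the mean profile of the 8 were pi-1700006A11Rik.2 (r = 0.993), pi-Eif4ebp2.1 (0.985), 4-qB3-639.1 (0.980), 4-qB3-277.1 (0.975) and pi-Lsmd1.1 (0.971), each over 8 libraries that the loci share. Pearson's r follows the shape of a profile and not its size: 4-qB3-277.1 had -0.69 ± 0.05 in small and 0.32 ± 0.09 in long RNA, while pi-Eif4ebp2.1, named for the gene of a repressor of translation, had -1.24 ± 0.08 in small and 1.36 ± 0.12 in long RNA.

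In the authors' deposited table the 8 loci have log2 fold changes of -2.07 to -0.50 in small and 0.42 to 2.00 in long RNA, with adjusted p-values up to 1.74e-04 and 0.0423. The authors' deposited table and the fit made here differ by at most 0.011 in any of these 16 log2 fold changes.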

How the data were processed

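Testis small RNA and long RNA of 2 Exd2∆ and 2 Exd2+/+ replicates were analysed from the table of each assay. The authors deposited estimated counts of each piRNA locus, not scaled to depth, beside their log2 fold change and adjusted p-value, which the file headers credit to edgeR. The submitters' processing notes list STAR, cutadapt and edgeR, with build GRCm38. How reads were counted, and on which strand, is not given in the sources used here. Per the labels, small RNA was cut from a gel and long RNA was rRNA-depleted and made directional.

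Each assay was fitted with edgeR 4.0.16 under R 4.3.3 on the rounded estimated counts of all 208 loci (none failed filterByExpr), by TMM, glmQLFit with its legacy option and genotype as the only term. P-values were adjusted after Benjamini-Hochberg. Both assays were also fitted together for the ratio. The SE is the absolute log2 fold change over the square root of F. Columns were matched by sample code, and 0 were unmatched. The fit of each assay, but not the joint fit, was tested on simulated counts with known fold changes. Their spread was taken from these same libraries, so this does not test that spread or the choice of the 8. The 8 loci, the gene lists and the legacy option were chosen with earlier results of these data known. Named besides the 8 are loci just outside the choice, neighbours within 100 kb and the 5 most alike. No genome sequence was given, so GC and repeat content of the loci were not analysed here. Alternatives were RLE and library-total scaling, 2 other filters, the default option of glmQLFit, DESeq2 1.42.0, an adjusted p below 0.1, a replicate block and leaving out each library.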

Additional observations from a re-analysis of the deposited data

How the results depend on the processing

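All 8 loci kept their direction in both assays under each alternative run. In the ratio they kept it under those run for it (all but DESeq2 and the adjusted p below 0.1). The 8 were chosen by these contrasts in these libraries, so keeping the direction is largely fixed by the choice. Calls of the 8 are likewise given as a description. In small RNA all 8 were called under each alternative. In long RNA the number of calls over all loci (16, of which 14 higher) moved to 38 (27 higher) with the replicate number as a block, 39 (28 higher) with DESeq2 and 26 at an adjusted p below 0.1; all 8 loci were called in each of these 3. Leaving out 1 long RNA library gave 0 to 105 calls, 0 to 56 of them higher, and 0 to 8 of the 8 loci, with 0 without either Exd2+/+ library (adjusted p of the 8 at 0.220 to 0.516 without replicate 1 and 0.268 to 0.516 without replicate 2, edgeR quasi-likelihood); the lone library of a genotype is then assumed to vary like the other genotype's 2, and the cause was not tested. 11-qB1.3-590.3 was not called in long RNA at library-total scaling (0.37, adjusted p = 0.0684, edgeR quasi-likelihood) or with the default option of glmQLFit (0.43, adjusted p = 0.0515). The labels give same-numbered libraries no more in common than the number. Their replicate 1 minus 2 differences correlated between genotypes at r = 0.04 in small and 0.34 in long RNA, and between small and long RNA at -0.07 in Exd2∆ and 0.21 in Exd2+/+, across 208 loci, which leaves the pairing unsettled. Within same-numbered pairs, the long RNA log2 fold change of 15-qE1-3710.1 was 0.70 for number 1 and 0.44 for number 2. Joining small and long RNA libraries crosswise leaves the mean log2 ratio as it is by construction. Precision is limited by the 2 libraries per genotype and by counting error of at most 2.56%.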
